A study of Mus musculus with 8 samples.

Results

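The 7 sterol genes *Hmgcs1*, *Idi1*, *Fdft1*, *Sqle*, *Lss*, *Cyp51* and *Insig1* were chosen by gene symbol from the 18990 genes of the deposited table, as genes driven by SREBP2, and each matched 1 row. They were followed in primary mouse embryonic fibroblasts (MEFs) of wild-type BL6 background that had been transduced with 2 lentiviruses, one carrying the doxycycline-inducible tet-STEMCCA cassette (*Oct4*, *Sox2*, *Klf4* and *c-Myc*, together OSKM) and one carrying its activator rtTA. The cells were then transfected with a pool of 3 siRNAs at 40 nM, directed against either *Ncor1* or *Oct4*, and reprogramming was induced at passage 2. All 4 groups received the same serum-containing medium with 2 µg/mL doxycycline, 3 µM chiron (a GSK3 inhibitor), 0.25 µM Alk5i (a TGF-beta receptor inhibitor), 50 µg/mL ascorbic acid and LIF. Total RNA was collected at day 3 and day 6, with 2 biological replicates in each group, which gave 8 libraries. Cells with a non-targeting siRNA are not analysed here, which leaves the contrast of the 2 siRNA pools with each other and of day 6 with day 3. RNA came from the bulk culture, in which fewer cells of a type and less RNA per cell cannot be told apart.

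Cholesterol is made from acetyl-CoA through the mevalonate pathway, and the transcription factor SREBP2, encoded by *Srebf2*, switches on most of the enzyme genes when the sterol content of the endoplasmic reticulum membrane is low. The SREBP precursor is carried from the endoplasmic reticulum to the Golgi by SCAP and is cut there by the proteases of *Mbtps1* and *Mbtps2*. INSIG proteins hold SCAP back when sterols are plentiful, and *Insig1* is itself an SREBP target, so it acts in a feedback loop. HMG-CoA synthase (*Hmgcs1*) makes the substrate of mevalonate synthesis, IDI1 isomerises the isoprenoid building block, squalene synthase (*Fdft1*) commits isoprenoids to sterols, squalene epoxidase (*Sqle*) and lanosterol synthase (*Lss*) form the sterol ring, and CYP51 removes a methyl group from lanosterol.

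All 7 genes are protein coding. On mm10, with the gene models of GENCODE M21, *Hmgcs1* (ENSMUSG00000093930) lies at chr13:119690379-119708260 and *Idi1* (ENSMUSG00000058258) at chr13:8885501-8892451, both on the plus strand. *Fdft1* (ENSMUSG00000021273) lies at chr14:63145150-63179578 on the minus strand, *Sqle* (ENSMUSG00000022351) at chr15:59315077-59331192 on the plus strand and *Lss* (ENSMUSG00000033105) at chr10:76531588-76557138 on the plus strand. *Cyp51* (ENSMUSG00000001467) lies at chr5:4081145-4104746 on the minus strand and *Insig1* (ENSMUSG00000045294) at chr5:28071363-28078662 on the plus strand.

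The sequences before the start sites of *Hmgcs1* and *Insig1* are printed, a choice made from the results. From day 3 to day 6 in the libraries labelled *siOct4*, *Hmgcs1* changed by −0.78 and *Insig1* by 0.39 (log2). The rise of *Insig1* did not pass the threshold in every fit, as given below. Between the knockdowns at day 6 the differences were −0.72 and −0.02. Whether the motifs relate to these directions was not tested. They come from RefSeq (GRCm38.p6), read 5′ to 3′ on the plus strand, and cover chr13:119690151-119690350 for *Hmgcs1* and chr5:28071163-28071362 for *Insig1*. Counted from the RefSeq start site, the *Hmgcs1* stretch covers bases −200 to −1 and the *Insig1* stretch bases −249 to −50. The bases nearer to the *Insig1* start site are not printed. Capitals mark the letters of the sterol regulatory element TCACNCCAC, of the NF-Y box CCAAT, here on the other strand and so printed reversed and complemented, and of the E-box CACGTG. These matches do not overlap each other.
Hmgcs1: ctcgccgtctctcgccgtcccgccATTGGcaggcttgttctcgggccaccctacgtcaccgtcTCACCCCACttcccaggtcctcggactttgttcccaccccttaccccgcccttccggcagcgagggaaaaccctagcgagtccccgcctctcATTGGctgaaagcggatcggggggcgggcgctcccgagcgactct
Insig1: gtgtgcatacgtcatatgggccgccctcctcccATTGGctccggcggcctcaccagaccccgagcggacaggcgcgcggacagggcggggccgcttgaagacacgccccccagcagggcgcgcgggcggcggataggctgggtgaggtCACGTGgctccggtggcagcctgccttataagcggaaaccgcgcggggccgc

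Motifs were searched on both strands in windows from 250 bases before to 50 bases after each RefSeq start site, and the table of windows held 5 of the 7 genes (*Hmgcs1*, *Idi1*, *Lss*, *Cyp51* and *Insig1*). The sterol regulatory element TCACNCCAC was found in 1 of these 5 windows, that of *Hmgcs1*, where it starts 137 bases before the start site, and in 1.24% of all 32851 windows. CCAAT was found in 5 of 5 windows against 37.4% of all windows, and GGGCGG, the letters of an SP1 box, in 5 of 5 against 35.7%. CACGTG, an E-box, was found in 1 of 5, that of *Insig1*, against 7.15%. Among 15 windows of 12 other genes of mevalonate and sterol enzymes, TCACNCCAC was found in 0, CCAAT in 11, GGGCGG in 11 and CACGTG in 3. These are letter matches and not measured binding sites.

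The 8 libraries held between 7735742 and 16445192 reads on genes, the smallest being 1 of the day 3 libraries labelled *siOct4*. The siRNA targets did not follow their labels throughout. *Ncor1* was at 7.08 and 7.20 log2-cpm in the *siNcor1* libraries and at 7.82 and 7.94 in the *siOct4* libraries at day 3, a difference of 0.74 ± 0.12 (log2 scale, SE, limma adjusted p = 0.0139). That call was lost when any 1 of these 4 libraries was left out (adjusted p between 0.0617 and 0.132). At day 6 *Ncor1* stood at 7.26 and 7.28 against 7.33 and 7.13 (adjusted p = 0.815). *Pou5f1*, which encodes OCT4, was not lower in the *siOct4* libraries at day 3 (7.53 and 7.62 against 7.63 and 7.68, adjusted p = 0.941) and was higher there at day 6 (9.45 and 8.97 against 7.55 and 7.32, adjusted p = 0.000109). Its reads may come from the cassette or from the cell's own gene, which cannot be told apart here. With the non-targeting control, the paper reports by RT-qPCR an early silencing of *Oct4* mRNA that soon recovered. It also reports a partial knockdown of *Ncor1* at day 3. Here *siOct4* and *siNcor1* name the libraries with these labels and not a depletion measured in them. All 8 fibroblast marker genes and all 4 epithelial marker genes examined were detected in each library. The 3 endothelial genes *Pecam1*, *Cdh5* and *Kdr* summed to at most 2.15 CPM, and the macrophage genes *Cd68*, *Csf1r* and *Adgre1* to at most 10.0 CPM.

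The sterol genes were expressed at moderate levels in every library. *Idi1* had between 25 and 91 reads, and the other 6 genes had between 255 (*Insig1*) and 1633 (*Cyp51*). Per kilobase of annotated exon, and as a mean over the 8 libraries, *Cyp51* was the most abundant at 18.7 CPM (range 13.6 to 22.9), followed by *Fdft1* at 13.7 (12.2 to 15.9), *Insig1* at 13.4 (10.4 to 15.8), *Sqle* at 11.6 (8.84 to 14.9) and *Hmgcs1* at 10.96 (6.83 to 15.0). The ranges of these 5 overlapped between neighbours, so their order is not resolved. *Lss* at 4.23 CPM per kilobase (4.02 to 4.74) and *Idi1* at 1.34 (0.903 to 2.03) stood below the others without overlap. Exons of all isoforms were joined for the length, which lowers the value of a gene with long or unused exons, such as *Lss* with 10787 bases.

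The genes varied to different degrees. The log2-cpm of *Lss* spanned 0.24 over the 8 libraries and that of *Fdft1* 0.38, whereas *Insig1* spanned 0.60, *Sqle* and *Cyp51* 0.75 each, *Hmgcs1* 1.13 and *Idi1* 1.14. For *Hmgcs1* the lowest pair of libraries was 1 group (day 6, labelled *siOct4*), while for *Idi1* the replicates of single groups were up to 0.87 apart.

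**Figure D1:**
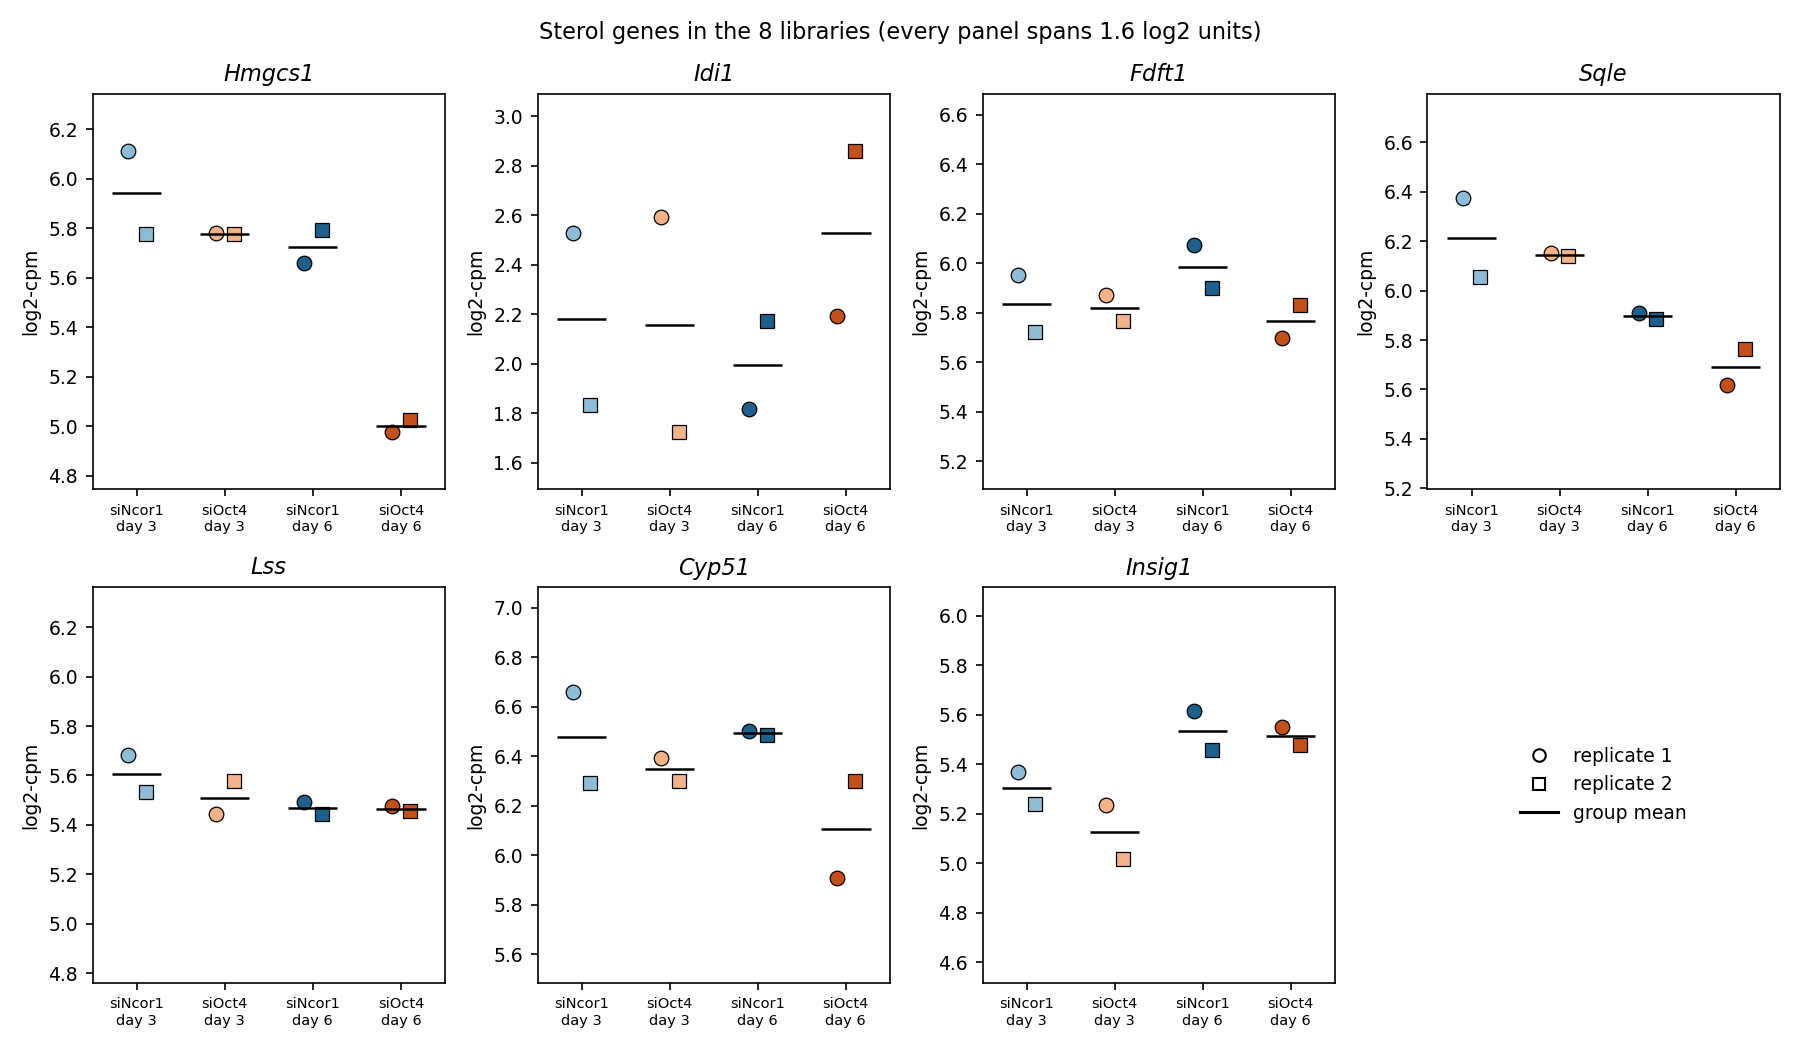
Log2-cpm (y axis) of each sterol gene in the 2 replicates (circle and square) of each group (x axis), with the group mean as a line; every panel spans the same range. *Hmgcs1* sits at 4.98 and 5.03 in the day 6 libraries labelled *siOct4* and at 5.66 or above in the other 6 libraries, whereas *Lss* stays between 5.44 and 5.68.

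At day 3 none of the sterol genes passed the test between the knockdowns. All 7 log2 differences (libraries labelled *siOct4* minus *siNcor1*) were negative and small, between −0.18 (*Insig1*) and −0.02 (*Fdft1*), with a median of −0.10 beside −0.02 over all 13866 genes tested. Of the 7 genes 0 were called by limma at an adjusted p of 0.05, where 1.07% of all genes tested were called (0.692% lower and 0.375% higher), 0 had an unadjusted p under 0.05, and 0 were called by voom on the recovered reads. The libraries of 1 gene, *Insig1*, did not overlap between the knockdowns at day 3, beside 43.4% of all genes tested. At day 6 *Hmgcs1* was the 1 gene called, and it was lower in the libraries labelled *siOct4*. For all genes tested the share called at day 6 was 30.7%, with 18.6% lower and 12.1% higher, and the median of the 7 differences was −0.21 beside −0.03 over all genes tested. The day 6 libraries of 5 of the 7 genes did not overlap, 4 being lower (*Hmgcs1*, *Fdft1*, *Sqle* and *Cyp51*) and 1 higher (*Idi1*), beside 64.7% of all genes tested.

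Between the days, 0 of the 7 genes were called in the libraries labelled *siNcor1*, where 34.8% of all genes tested were called, 20.9% lower and 13.8% higher (1 gene, *Sqle*, had an unadjusted p under 0.05, and voom called 0). The days did not overlap for *Sqle* and *Lss*, which were lower at day 6, and for *Insig1*, which was higher, beside 73.1% of all genes tested. In the libraries labelled *siOct4*, *Hmgcs1* and *Sqle* fell and *Insig1* rose from day 3 to day 6, and 52.7% of all genes tested were called, 30.5% lower and 22.2% higher. Markers moved between the same libraries. In *siOct4* the 8 fibroblast markers summed to 9044 and 10626 CPM at day 3 and to 2498 and 2570 CPM at day 6 (5 of 8 called lower, median −0.88), and the 4 epithelial markers to 15.2 and 17.2 CPM at day 3 and to 292 and 263 CPM at day 6 (4 of 4 called higher, median 4.06). Their part in the changes of *Hmgcs1*, *Sqle* and *Insig1* was not tested. These 3 genes were also those without overlap between the days, beside 74.8% of all genes tested. The medians of the 7 differences were −0.14 in *siNcor1* and −0.05 in *siOct4*, beside −0.07 and −0.08 over all genes tested. The change of the knockdown difference from day 3 to day 6 was called for 0 of the 7 genes, where 20.7% of all genes tested were called, 12.9% lower and 7.77% higher (1 gene, *Hmgcs1*, had an unadjusted p under 0.05, and voom called 0). These comparisons share libraries, so they are not independent of each other.

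**Figure D2:**
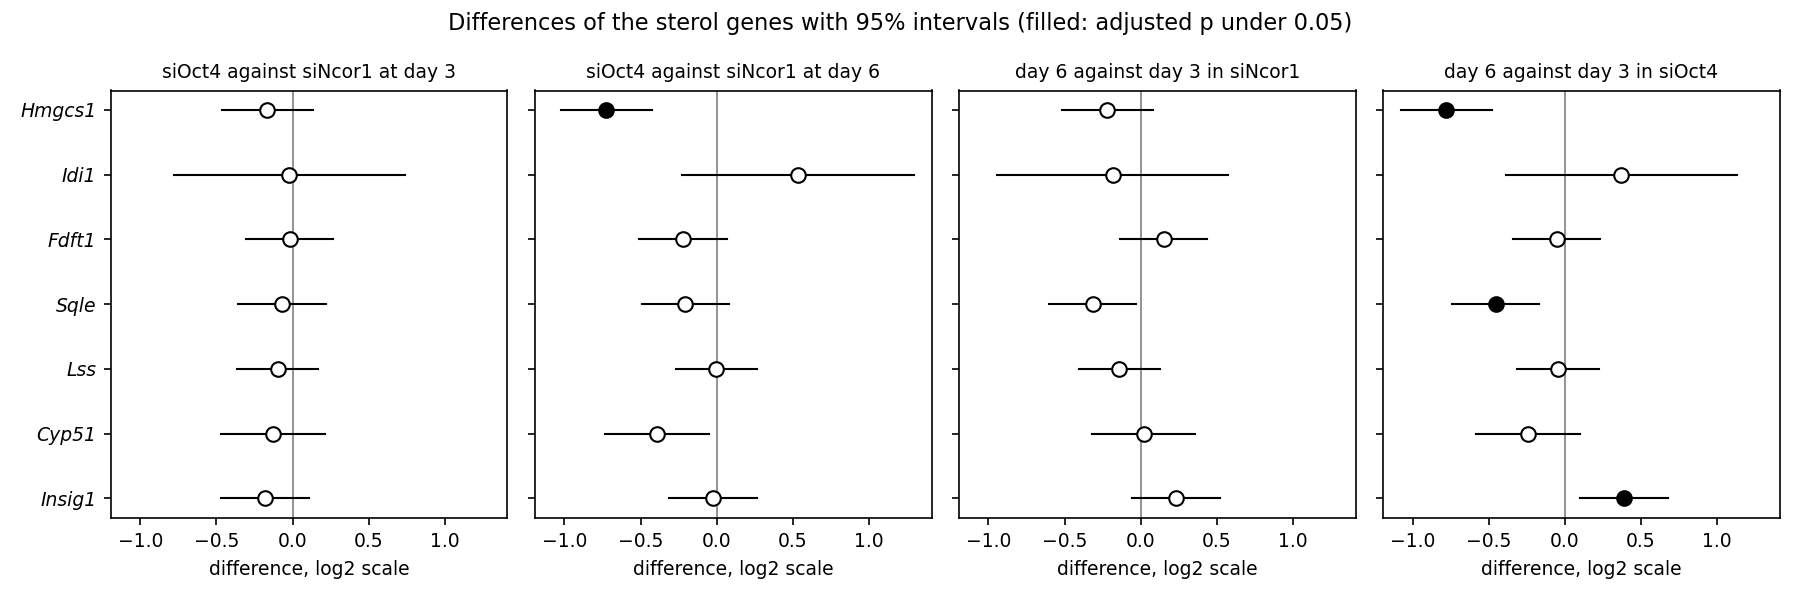
Log2 difference (x axis) of each sterol gene (y axis) in 4 comparisons, with the 95% interval from limma as a line and filled points where the adjusted p was under 0.05. *Hmgcs1* is filled in both comparisons that involve the day 6 libraries labelled *siOct4*, *Sqle* and *Insig1* in the change between days in *siOct4*, and no gene in the first and the third panel.

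*Hmgcs1*, which encodes the synthase at the entry of the pathway, had the widest group difference of the 7. At day 3 it was at 6.11 and 5.78 log2-cpm in the libraries labelled *siNcor1* and at 5.78 and 5.78 in those labelled *siOct4*. At day 6 it was at 5.66 and 5.79 in *siNcor1* and at 4.98 and 5.03 in *siOct4*, so that the 2 last libraries lay below the other 6. The day 6 difference was −0.72 ± 0.14 (log2, SE, adjusted p = 0.00284), which is 39.5% lower, and the 95% interval ran from −1.02 to −0.43. It held under all 10 other settings (adjusted p between 0.00223 and 0.0179) and when any 1 of the 4 libraries was left out (adjusted p between 0.00319 and 0.0423). From day 3 to day 6 *Hmgcs1* decreased by 41.7% in *siOct4* (−0.78 ± 0.14, adjusted p = 0.000554), while in *siNcor1* the change was −0.22 ± 0.14 (adjusted p = 0.238, 95% interval −0.52 to 0.08).

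The test of whether the *Hmgcs1* difference between the knockdowns changed from day 3 to day 6 did not pass the threshold (−0.56 ± 0.19, adjusted p = 0.0588). Without replicate 1 of *siNcor1* day 3 that change was −0.73 (adjusted p = 0.0339), and without replicate 2 of *siOct4* day 6 it was −0.58 (adjusted p = 0.0462). It did not pass in the other 6 fits that left out 1 library, among them −0.39 (adjusted p = 0.235) without replicate 2 of *siNcor1* day 3, nor under any of the 9 other settings run (adjusted p between 0.0525 and 0.118). An antisense gene, *Gm48342*, covers 12.1% of the exon bases of *Hmgcs1* on the opposite strand and was near the detection limit, with group means between −0.84 and 0.17 log2-cpm. It is not stated whether reads were counted by strand.

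Other measurements moved together with the lower *Hmgcs1*. In the day 6 libraries the summed level of the 8 fibroblast markers was 2498 and 2570 CPM in those labelled *siOct4* and 4531 and 4891 CPM in those labelled *siNcor1*, and the log2 differences of all 8 genes were called lower, with a median of −0.86. The 4 epithelial markers summed to 292 and 263 CPM against 612 and 581 CPM, and 3 of the 4 were called lower. Reads of the non-coding gene *Gm26917* made up 15.5% to 16.6% of a library at day 3. At day 6 they made up 29.1% and 23.9% in *siOct4* and 21.7% and 20.3% in *siNcor1*. With *Gm26917* left out of the library totals the *Hmgcs1* difference at day 6 was −0.71 (adjusted p = 0.00233). That setting changes the totals alone. The part of the markers and of *Gm26917* in the *Hmgcs1* result was not tested.

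*Idi1*, the isomerase, was too variable at its depth to resolve differences. It was at 2.53 and 1.83 log2-cpm in *siNcor1* and 2.59 and 1.72 in *siOct4* at day 3, and at 1.82 and 2.17 in *siNcor1* and 2.19 and 2.86 in *siOct4* at day 6. The day 6 groups did not overlap, and the difference of 0.53 ± 0.35 did not pass the threshold (adjusted p = 0.268, 95% interval −0.23 to 1.29). Transcripts of 2 other genes, *Gm13502* and *Gm35570*, match 22.6% of the longest *Idi1* transcript at an identity of at least 95%, so its reads may be shared with them. The gene *Gm48574* lies on the opposite strand over 9.22% of the exon bases of *Idi1*.

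*Fdft1*, whose product makes squalene, was among the steadiest genes. It was at 5.95 and 5.72 log2-cpm in *siNcor1* and 5.87 and 5.77 in *siOct4* at day 3, and at 6.07 and 5.90 in *siNcor1* and 5.70 and 5.83 in *siOct4* at day 6. The day 6 groups did not overlap, but the difference of −0.22 ± 0.13 was not called (adjusted p = 0.223, 95% interval −0.51 to 0.07). *Fdft1* shares 18.3% of its exon bases with *Ctsb* on the opposite strand, whose group means were between 9.16 and 9.93 log2-cpm, well above its own. At day 6 *Ctsb* was at 9.93 in *siNcor1* and 9.24 in *siOct4*, lower in *siOct4* like *Fdft1*. Its part in the *Fdft1* values was not tested. Transcripts of *Gm6781* match 33.7% of its longest transcript, so its values are uncertain.

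*Sqle*, which encodes the epoxidase that follows squalene synthase, was lower at day 6 than at day 3 under both labels. It went from 6.37 and 6.05 log2-cpm at day 3 to 5.91 and 5.89 at day 6 in *siNcor1*, and from 6.15 and 6.14 to 5.62 and 5.76 in *siOct4*, with no overlap between the days in either. In *siOct4* it fell by 0.45 ± 0.13 on the log2 scale (adjusted p = 0.0122), a decrease of 27.0%. In *siNcor1* the change was −0.32 ± 0.13 and was not called (adjusted p = 0.0818, 95% interval −0.60 to −0.03), and the test of the difference between these changes gave −0.14 ± 0.19 (adjusted p = 0.634). The call for *Sqle* in *siOct4* was lost with quantile normalization (−0.22, adjusted p = 0.180), with library totals without *Gm26917* (−0.32, adjusted p = 0.0501), and without replicate 1 or replicate 2 of *siOct4* day 3 (adjusted p = 0.0589 and 0.0590). At day 6 the knockdowns differed in *Sqle* by −0.21 ± 0.13 (adjusted p = 0.259).

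*Lss*, the lanosterol synthase gene, showed the narrowest spread. It was at 5.68 and 5.54 log2-cpm in *siNcor1* and 5.44 and 5.58 in *siOct4* at day 3, and at 5.49 and 5.44 in *siNcor1* and 5.48 and 5.45 in *siOct4* at day 6. Its day 6 difference between the knockdowns was −0.00 ± 0.12 (adjusted p = 0.992), and the 95% interval of −0.27 to 0.26 leaves room for a change in either direction by that amount. On the opposite strand *4930483K19Rik* covers 3.53% of the exon bases of *Lss*, with group means of at most −0.85 log2-cpm. In the same libraries *Hmgcs1* differed by −0.72 and *Lss* did not differ detectably.

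*Cyp51*, the lanosterol demethylase gene, depended on 1 library. It was at 6.66 and 6.29 log2-cpm in *siNcor1* and 6.39 and 6.30 in *siOct4* at day 3, and at 6.50 and 6.49 in *siNcor1* and 5.91 and 6.30 in *siOct4* at day 6. Replicate 1 of *siOct4* day 6 was therefore the low library, and the other lay at the level of day 3. The day 6 difference of −0.39 ± 0.16 was not called (adjusted p = 0.0778, 95% interval −0.73 to −0.05). It became −0.59 (adjusted p = 0.0107) without replicate 2 of *siOct4* day 6 and −0.19 (adjusted p = 0.359) without replicate 1. The change of *Cyp51* between the days in *siOct4* was −0.24 ± 0.16 (adjusted p = 0.212), with −0.44 (adjusted p = 0.0269) without replicate 2 of *siOct4* day 6 and −0.045 (adjusted p = 0.824) without replicate 1. *Akap9* covers 3.76% of the exon bases of *Cyp51* on the opposite strand and was at a similar level. From day 3 to day 6 its group means went from 6.57 to 5.85 log2-cpm in *siNcor1* and from 6.64 to 5.40 in *siOct4*. Its part in the *Cyp51* values was not tested.

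*Insig1*, the feedback regulator, went the other way. It was at 5.37 and 5.24 log2-cpm in *siNcor1* and 5.24 and 5.02 in *siOct4* at day 3, and at 5.62 and 5.46 in *siNcor1* and 5.55 and 5.48 in *siOct4* at day 6, so that under both labels the day 6 libraries lay above the day 3 libraries. In *siOct4* it rose by 0.39 ± 0.13 on the log2 scale (adjusted p = 0.0275), an increase of 30.7%. In *siNcor1* the change of 0.23 ± 0.13 was not called (adjusted p = 0.199, 95% interval −0.06 to 0.52), and the test of the difference between the changes gave 0.16 ± 0.19 (adjusted p = 0.588). The call for *Insig1* in *siOct4* was lost without replicate 2 of *siOct4* day 3 (0.28, adjusted p = 0.208), without replicate 1 of *siOct4* day 6 (0.35, adjusted p = 0.0685), without a variance trend in the fit (adjusted p = 0.0537) and in a fit of the 2 groups alone (adjusted p = 0.0682). Between the knockdowns at day 6 *Insig1* differed by −0.02 ± 0.13 (adjusted p = 0.913, 95% interval −0.31 to 0.27).

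The 7 genes did not move as 1 block over the 8 libraries. The highest Pearson correlation between a pair of them was 0.89 (*Hmgcs1* and *Sqle*) and the lowest was −0.61 (*Sqle* and *Insig1*), as a description over 8 libraries that share their groups and depth. With the mean of the other 6 genes, *Cyp51* correlated at 0.86, *Fdft1* at 0.61, *Sqle* at 0.60, *Lss* at 0.40 and *Hmgcs1* at 0.39, but *Idi1* at −0.05 and *Insig1* at −0.23. The mean of the 7 genes, each centred on its own mean, was highest in replicate 1 of *siNcor1* day 3 (0.25) and lowest in replicate 1 of *siOct4* day 6 (−0.21), so single libraries rather than whole groups stood at both ends. The genes were not scaled for this mean, so those with a wide span, such as *Idi1* with its few reads, weighed more in it. Outside the 7, the tested genes with the most similar pattern were *Dcaf6* (r = 0.96), *Id2*, *Srd5a3*, *Carf*, *Nxpe3*, *Zfp57*, *Vps45* and *Siae* (r = 0.89). The most opposite were *Adamts17* (r = −0.93), *Rusc1* and *A930001C03Rik* (r = −0.91). These are the extremes of 13866 genes tested.

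The remaining enzymes of the pathway showed no common direction at day 6. Of 6 mevalonate pathway enzymes (*Acat2*, *Mvk*, *Pmvk*, *Mvd*, *Fdps* and *Ggps1*) 0 were called between the knockdowns at day 6 by limma (1 had an unadjusted p under 0.05, and voom called 1 higher), with a median of 0.00. Of 8 late sterol enzymes 1 was called higher in *siOct4* and 2 lower, beside 12.1% and 18.6% of all genes tested, and the median was −0.22. *Dhcr7*, which catalyses the last reduction to cholesterol, was at 4.95 and 4.40 log2-cpm in *siNcor1* and at 5.30 and 5.34 in *siOct4*, a difference of 0.65 ± 0.18 (adjusted p = 0.0185). *Hsd17b7* was at 5.37 and 5.44 against 4.84 and 4.92 (−0.53 ± 0.15, adjusted p = 0.0209), and *Sc5d* differed by −0.47 ± 0.15 (adjusted p = 0.0379). Without replicate 2 of *siNcor1* day 6, the differences of *Dhcr7*, *Hsd17b7* and *Sc5d* were 0.37, −0.49 and −0.38 and were not called (adjusted p = 0.222, 0.137 and 0.238). *Hsd17b7* was also not called without replicate 1 of that group (adjusted p = 0.0688), nor *Sc5d* without replicate 1 of *siNcor1* day 6 (adjusted p = 0.0739) or of *siOct4* day 6 (adjusted p = 0.122). The groups of *Dhcr7* and *Hsd17b7* did not overlap at day 6, and the 2 genes lay on opposite sides.

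From day 3 to day 6 in *siOct4*, 2 of the 6 mevalonate enzymes rose and 0 fell, and 2 of the 8 late enzymes rose and 3 fell, beside 22.2% higher and 30.5% lower over all genes tested. Of these calls, 1 of the 2 among the mevalonate enzymes and 1 of the 5 among the late enzymes held when any 1 of the 4 libraries was left out. *Pmvk* rose by 0.63 ± 0.17 on the log2 scale (adjusted p = 0.00770), while *Hsd17b7* fell by 0.65 ± 0.15 (adjusted p = 0.00342). In *siNcor1*, 1 mevalonate enzyme was called higher (*Mvd*) and 1 lower (*Acat2*), beside 13.8% and 20.9% of all genes tested. With 1 library left out, *Mvd* passed in 1 of 4 fits (0.27 to 0.92 on the log2 scale) and *Acat2* in 0 of 4 (adjusted p between 0.0921 and 0.135). In the same comparison 0 of the late enzymes were called (1 had an unadjusted p under 0.05, and voom called 1 higher).

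*Srebf2*, the gene of SREBP2 itself, was steady. It was between 7.34 and 7.72 log2-cpm in the 8 libraries, and its difference between the knockdowns at day 6 was −0.11 ± 0.14 (adjusted p = 0.594). Of the 7 genes of the SREBP machinery examined, 0 were called between the knockdowns at day 6 by limma or by voom (1, *Insig2*, had an unadjusted p under 0.05), with a median of −0.13. Limma called 30.7% of all genes tested there. From day 3 to day 6 in *siOct4*, 3 of the 7 fell and 0 rose by limma, with a median of −0.29 beside −0.08 over all genes tested. There 4 of the 7 had an unadjusted p under 0.05, and voom called 3 lower and 1 higher. Of all genes tested, 30.5% were called lower and 22.2% higher in that comparison, and 20.9% lower and 13.8% higher in *siNcor1*. *Erlin2*, which encodes a protein of the endoplasmic reticulum membrane, fell by 0.83 ± 0.12 on the log2 scale (adjusted p = 0.000175). The genes of both SREBP proteases fell as well, *Mbtps1* by 0.46 ± 0.11 (adjusted p = 0.00494) and *Mbtps2* by 0.48 ± 0.15 (adjusted p = 0.0186). The call for *Mbtps1* was lost with quantile normalization (−0.23, adjusted p = 0.112). That for *Mbtps2* was lost with library totals without *Gm26917* (adjusted p = 0.0681), in a fit of the 2 groups alone (adjusted p = 0.0508), and without replicate 1 of *siOct4* day 3 (adjusted p = 0.130) or of *siOct4* day 6 (adjusted p = 0.0941). In *siNcor1* 1 of the 7 fell, *Erlin2*, a call lost without replicate 1 of *siNcor1* day 6 (adjusted p = 0.0557).

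The related lists of sterol export, uptake and storage were compared between the knockdowns at day 6, where 18.6% of all genes tested were called lower and 12.1% higher, with a median of −0.03. Of 7 genes of the LXR pathway, whose receptors sense oxysterols, 4 were called lower and 0 higher, with a median of −0.76, and 3 of the 4 calls held when any 1 of the 4 libraries was left out. *Abca1*, the cholesterol exporter, was at 6.91 and 7.23 log2-cpm in *siNcor1* and at 5.78 and 6.20 in *siOct4* at day 6, a difference of −1.08 ± 0.16 (adjusted p = 0.000857). *Mylip*, whose product targets lipoprotein receptors for degradation, differed by −0.98 ± 0.18 (adjusted p = 0.00262). Of 7 genes of sterol uptake, transport and storage 4 were called lower and 0 higher, with a median of −0.37, and 2 of the 4 calls held in the same way. *Soat1*, which esterifies cholesterol for storage, was at 6.50 and 6.51 in *siNcor1* and at 5.47 and 5.95 in *siOct4* (−0.80 ± 0.16, adjusted p = 0.00336), and *Lrp1*, a lipoprotein and matrix receptor, was at 10.93 and 10.91 against 10.07 and 9.90 (−0.94 ± 0.18, adjusted p = 0.00312). The fibroblast markers were lower in the same libraries, and their part in these differences was not tested.

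Over time the lists did not share a direction. Their counts stand beside 52.7% of all genes called in *siOct4*, 30.5% lower and 22.2% higher. For *siNcor1* the share was 34.8%, with 20.9% lower and 13.8% higher. In *siOct4* 2 LXR genes rose and 2 fell, and 4 of the genes of uptake, transport and storage fell, among them *Soat1* by 1.46 ± 0.16 on the log2 scale (adjusted p = 1.75e-05). In *siNcor1* 4 LXR genes rose and 1 fell, and 2 genes of uptake, transport and storage rose and 1 fell, but 4 of these 5 LXR calls and all 3 others were lost without at least 1 of the 4 libraries. Of 11 genes of fatty acid synthesis, which SREBP1 mainly drives, 3 were lower between the knockdowns at day 6, beside 18.6% of all genes tested. The list's median there was −0.02. Over time 4 of the 11 fell in *siNcor1*, with a median of −0.30 beside −0.07 over all genes tested. In *siOct4* 8 fell and 1 rose, with a median of −0.41 beside −0.08. Voom called 5 lower and 1 higher in *siOct4*. With any 1 library left out, 0 of these 3 calls held at day 6, 2 of the 4 in *siNcor1* and 2 of the 9 in *siOct4*. At day 3 none of the genes of the 6 lists were called between the knockdowns by limma or by voom, and 3 genes over all 6 lists had an unadjusted p under 0.05 (2 of fatty acid synthesis and 1 of the LXR list).

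**Figure D3:**
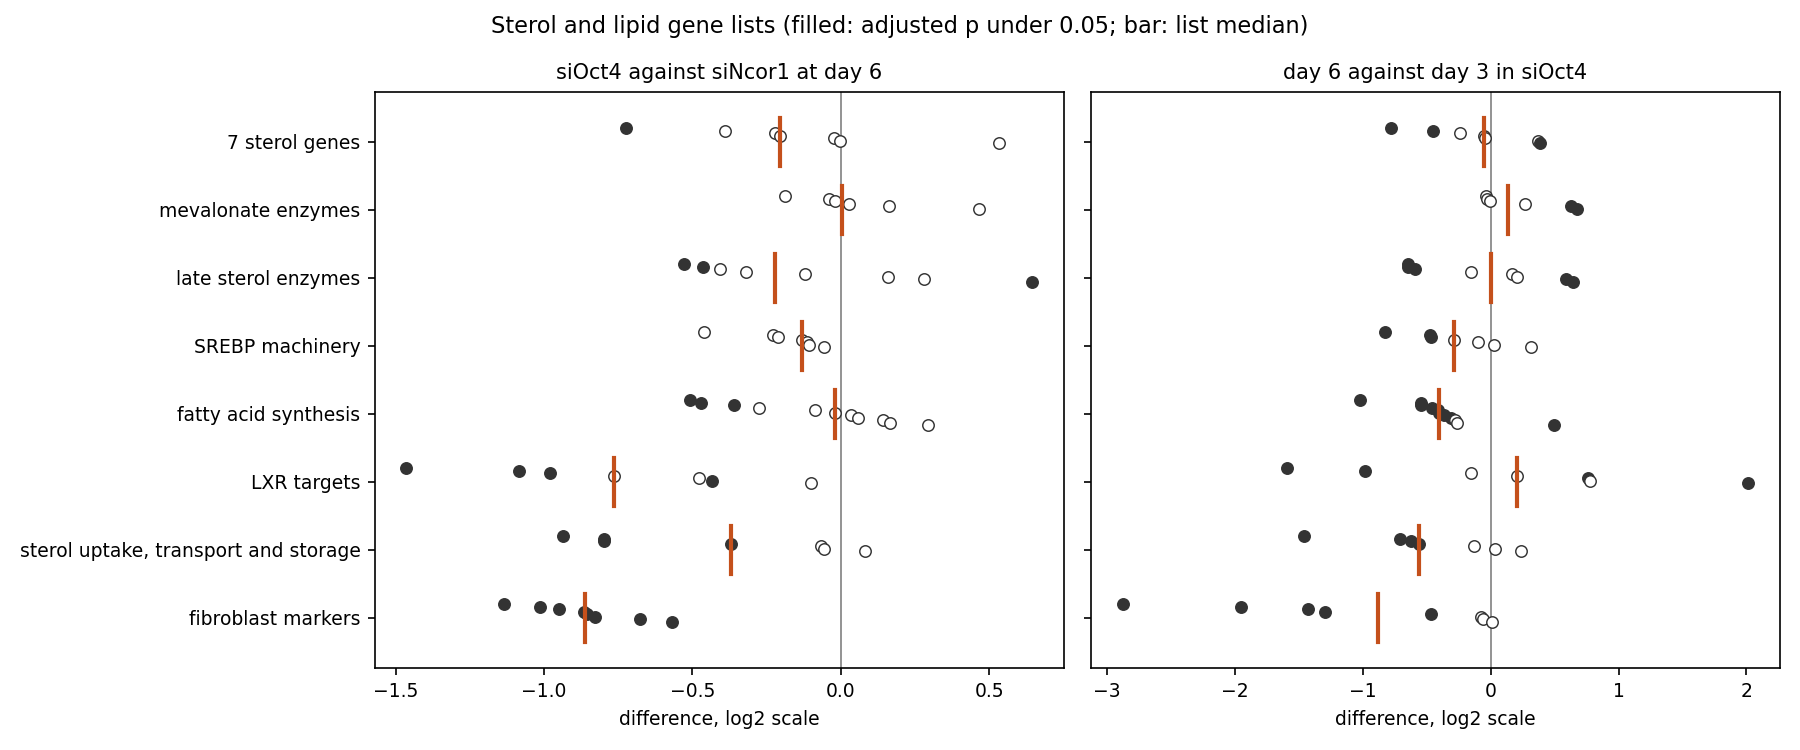
Log2 difference (x axis, with its own range in each panel) of each tested gene of the 7 sterol genes, 6 related lists and the fibroblast markers (y axis), between the knockdowns at day 6 and between the days in *siOct4*. Filled points passed an adjusted p of 0.05 in limma and the bar is the list's median; the 7 sterol genes have medians of −0.21 and −0.05, and all 8 fibroblast markers are filled and below 0 in the first panel.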

How the data were processed

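The authors aligned paired reads of 43 bp to mm10 with STAR (2.5.2b in the submitters' processing notes) and deposited log2-cpm values, which they computed with edgeR 3.20.9. The counting tool, its annotation and its use of strand are not given in the sources used here. Subtracting the constant of the conversion gave whole reads (tolerance 0.1 read) for 100% of the values. At 3 reads a gene reads 0.174 to 0.380 CPM, according to the library. The 2 libraries of a group differed by more than counting error alone gives (chi-square of 8.44 to 18.7 per degree of freedom). In the main fit the p-values rest on the spread between the 2 libraries within a group, pooled over the 4 groups.

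A mean of 1 CPM or more over the libraries was required, which kept 13866 of 18990 genes, the 7 sterol genes among them. The deposited log2 values of these were tested with limma 3.58.1 under R 4.3.3 (lmFit, then eBayes with a mean-variance trend). The 4 groups were fitted together, so each difference rests on their pooled spread, and p-values were adjusted by Benjamini-Hochberg over all genes tested, with a threshold of 0.05. The planned design foresaw this test for log2 values. Identifiers were matched to GENCODE M21 for 18969 genes. Transcripts were compared with blastn 2.17.0 (identity of at least 95%, at least 100 bases). The procedure was tested on simulated data. Matplotlib 3.10.9 was used for figures.

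The 7 genes, the 6 lists and the marker genes were chosen with earlier results of these data known. All 7 genes are named, list genes may be named, and the 8 tested genes most correlated and the 3 most opposed to the mean of the 7 are named. In the list of SREBP machinery, 1 gene is not reported here and is left out of its counts. Markers of blood (*Ptprc*) and of liver cells were not analysed here. The alternatives were no trend, centring on medians, quantile normalization, library totals without *Gm26917*, no expression filter, a stricter filter at 10 CPM, a pseudocount of 1 CPM, a replicate block, voom on the recovered reads with normalization factors computed by trimmed means, a fit of only the groups compared, and leaving out each library.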

Additional observations from a re-analysis of the deposited data

Results flagged for a closer look

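None of the 7 sterol genes changed its difference between the knockdowns from day 3 to day 6 past the threshold in limma (1, *Hmgcs1*, had an unadjusted p under 0.05, and voom called 0). Of all genes tested, 20.7% were called for this change, 12.9% lower and 7.77% higher. All 8 fibroblast markers were called lower for this change, and of the 4 epithelial markers 3 were called higher and 1 lower. Of the 6 related lists, the change was called for 0 of 6 mevalonate enzymes, 2 of 8 late sterol enzymes and 0 of 7 SREBP machinery genes. It was called for 1 of 11 genes of fatty acid synthesis, 2 of 7 LXR genes and 3 of 7 genes of uptake, transport and storage. Values are given for 9 further genes that were called. The values are the log2 difference (libraries labelled *siOct4* minus *siNcor1*) at day 6 less that at day 3. The change was −1.05 for *Soat1*, −1.19 for *Lrp1*, −0.93 for *Lipa* (a lysosomal lipase), −1.23 for *Mylip*, −0.60 for *Me1* (malic enzyme), −0.67 for *Hsd17b7* and 0.85 for *Dhcr7*. For the siRNA targets it was −0.79 for *Ncor1* and 1.85 for *Pou5f1*. Leaving out replicate 2 of *siNcor1* day 3 ended the calls for *Soat1*, *Lrp1*, *Lipa*, *Mylip*, *Me1*, *Hsd17b7* and *Dhcr7* (adjusted p between 0.0512 and 0.179), and those for *Ncor1* and *Pou5f1* held without any 1 library. Calls for *Dhcr7*, *Hsd17b7*, *Lipa* and *Me1* were also lost without other single libraries: without replicate 1 of *siNcor1* day 3 (*Dhcr7*), replicate 1 of *siOct4* day 3 (*Hsd17b7* and *Me1*), replicate 2 of *siOct4* day 3 (all 4), replicate 1 of *siNcor1* day 6 (*Hsd17b7* and *Me1*) and replicate 2 of *siNcor1* day 6 (all 4).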

How the results depend on the processing

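The call for *Hmgcs1* at day 6 held under every setting run, as did its fall between the days in *siOct4*. From day 3 to day 6 in *siOct4* the number of sterol genes called higher (*Insig1*, 1) was 0 without the trend, 0 in the fit of only the groups compared and between 0 and 1 when 1 library was left out. The number called lower (*Hmgcs1* and *Sqle*, 2) was 1 with quantile normalization, 1 with library totals without *Gm26917* and between 1 and 3 with 1 library left out (3, with *Cyp51*, without replicate 2 of *siOct4* day 6). Between the knockdowns at day 6 the number called lower was between 1 and 2 with 1 library left out (2 without replicate 2 of *siOct4* day 6). For the change of the difference it was between 0 and 1 (1 without replicate 1 of *siNcor1* day 3 or replicate 2 of *siOct4* day 6).

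Signs turned only for differences that were not called. Under centring on medians, quantile normalization, library totals without *Gm26917* and voom, the change in *siOct4* was 0.018, 0.16, 0.083 and 0.020 for *Fdft1* and 0.026, 0.13, 0.091 and 0.035 for *Lss*, and the day 6 difference of *Lss* was 0.038, 0.036, 0.016 and 0.015. That of *Insig1* was 0.017 with centring and 0.023 with quantile normalization, that of *Idi1* at day 3 was 0.025 with quantile normalization and 0.081 with voom, and with quantile normalization the change of *Lss* in *siNcor1* was 0.0021 and that of *Cyp51* in *siOct4* was 0.0078. With 1 library left out, the day 3 differences lay between −0.33 and 0.0020 for *Hmgcs1*, −0.46 and 0.41 for *Idi1*, −0.13 and 0.098 for *Fdft1*, −0.23 and 0.091 for *Sqle* and −0.31 and 0.053 for *Cyp51*, and the day 6 differences between −0.026 and 0.022 for *Lss* and −0.10 and 0.056 for *Insig1*. The changes lay between −0.53 and 0.16 for *Idi1* and −0.17 and 0.20 for *Cyp51* in *siNcor1*, between −0.065 and 0.80 for *Idi1*, −0.12 and 0.014 for *Fdft1* and −0.11 and 0.021 for *Lss* in *siOct4*, and the change of the difference of *Sqle* between −0.30 and 0.022. The cause was not tested. *Idi1* had no value under a mean of at least 10 CPM.

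The labels only number the replicates, so the numbers were not taken to pair the libraries in the main fit. Same-numbered replicates deviated with correlations between −0.040 and 0.281. With the replicate block *Hmgcs1* at day 6 was at −0.72 (adjusted p = 0.00223), and the block changed no call of the 7 genes. Over all genes the block raised the calls in every comparison. They went from 4251 to 4698 at day 6 and from 2867 to 3395 for the change of the difference. Over time they went from 4819 to 5218 in *siNcor1* and from 7312 to 7570 in *siOct4*. At day 3 the block raised the calls from 148 to 222. That count was 43 without the trend, 81 with a mean of at least 10 CPM and between 3 and 50 with 1 library left out, and its share of higher genes was 35.1%, against 52.3% with voom, 49.5% with only the groups compared and 16.3% without the trend. At day 6, 4251 genes fell to 1398 without replicate 2 and 2640 without replicate 1 of *siNcor1* day 6. With 1 library left out, 4819 genes over time in *siNcor1* became between 2360 (without replicate 2 of *siNcor1* day 3) and 3292, and 2867 for the change of the difference between 1009 (without the same library) and 3667. Over time in *siOct4* the higher share was 42.1%, and 52.5% with totals without *Gm26917*, a setting that moved the median of all genes from −0.08 to 0.06. For the genes of the lists outside the 7, and the siRNA targets, that were called, 618 values under other settings kept the call and 68 lost it, and with 1 library left out 210 kept it and 110 lost it.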
